A study of Mus musculus with 21 samples.

Results

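Dgat1 and 9 other genes of triacylglycerol storage and release were followed in mouse osteoblasts treated with analogs of parathyroid hormone (PTH). The 10 genes were Gpam, Agpat2, Lpin1, Mogat1, Dgat1 and Dgat2, which build triacylglycerol, Plin2, which coats the lipid droplet, and Pnpla2, Lipe and Mgll, which release fatty acids from it. They were taken by gene symbol from the 22180 genes measured by a transcript cluster with a single symbol, and each of the 10 had 1 such cluster. The group was chosen by the Dgat1 signal, its difference from vehicle with the intact analogs in these same arrays, so the rise of Dgat1 is given as a description, without a test. The rise of Dgat2 was also known when the group was chosen.

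The cultures were primary osteoblasts from the calvaria, the skull vault, of C57BL/6J mice 7 to 10 days old. They were used at passage 2, received β-glycerophosphate and ascorbic acid from day 3 to day 10, and were then kept without serum for 24 h. Each culture was treated for 4 h, and 100 ng of its RNA was hybridised to 1 Affymetrix Mouse Gene 2.0 ST array. There were 7 groups of 3 arrays, 21 arrays in all, and osteoblasts were prepared separately for each replicate. The reference group received vehicle. Human hPTH(1-34), human hPTH(1-31) and PTH(1-36), each at 100 nM, begin at the first residue of the hormone and are called intact here. Bovine bPTH(3-34) and human hPTH(7-34), each at 100 nM, and bPTH(7-34), a bovine amide with D-Trp12 and Tyr34, start further along the hormone and are the truncated analogs. bPTH(7-34) was used at 1000 nM, so it was set against vehicle only. No allele or transgene was part of the design, and 4 h was the only time measured.

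Triacylglycerol is made by adding fatty acids one after another to a glycerol backbone. Dgat1 and Dgat2 encode unrelated enzymes of the endoplasmic reticulum that add the last fatty acid to diacylglycerol. The product is stored in droplets coated by perilipins such as Plin2 and is broken down again by a chain of lipases. PTH acts on osteoblasts through the receptor Pth1r, which couples to cyclic AMP, and osteoblasts can draw on stored and imported fatty acids as fuel.

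Signals are log2 values, so 1 unit is a doubling, and group values are means ± SD of 3 arrays. The medians of the 21 arrays lay between 3.49 and 3.61, and the number of arrays limits the precision. Of 8 osteoblast markers, Col1a1, a chain of type I collagen, read 13.17 to 13.28 in the 21 arrays, while Bglap (2.61 to 4.22) and Dmp1 (2.40 to 4.14), which mark mature cells, were low. Ibsp, another marker of the list, read higher and varied widely (5.47 to 9.25). Its hPTH(1-31) arrays read 9.25, 7.39 and 5.98, and it was not called against vehicle with any analog. Pth1r fell with hPTH(1-34), hPTH(1-31) and PTH(1-36) (-1.10, -1.10 and -1.02), as did the osteoblast transcription factor Sp7 (-0.56, -0.64 and -0.71), and the phosphatase Alpl was called higher with the first 2 (0.56 and 0.57). Macrophage markers were also strong (Lyz2 11.93 to 12.52, Cd68 10.87 to 11.56), and 0 of 12 were called against vehicle with any analog; the mean over the list lay between 9.14 and 9.63. Of 9 adipocyte markers, the hormones Adipoq (2.21 to 3.21) and Lep (2.40 to 3.37) read below the array medians and the droplet coat gene Plin1 3.47 to 4.29, while the regulators Cebpa (6.87 to 7.35) and Pparg (5.90 to 7.10) read well above them. The mean of the 9 lay between 4.09 and 4.23 with hPTH(1-31), 4.07 and 4.13 with hPTH(1-34), 3.86 and 4.00 with PTH(1-36), and 4.05 and 4.17 with vehicle, so all 3 PTH(1-36) arrays lay below vehicle. In such whole cultures, fewer cells of a type and less RNA per cell cannot be told apart.

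Dgat1 (transcript cluster 17318502, on chromosome 15) had the highest signals with the 3 intact analogs. In the 3 vehicle arrays it read 6.00, 5.63 and 5.65. With hPTH(1-34) it read 9.81, 9.68 and 9.78. The other intact analogs gave nearly the same readings, 9.81, 9.64 and 9.77 with hPTH(1-31) and 9.65, 9.65 and 9.77 with PTH(1-36). All 9 arrays of the intact analogs lay far above all 12 others, with no array in between. The means were higher than with vehicle (5.76 ± 0.21) by 4.00 with hPTH(1-34) (95% interval 3.79 to 4.21, 16.0-fold), by 3.98 with hPTH(1-31) (3.77 to 4.19, 15.8-fold) and by 3.93 with PTH(1-36) (3.72 to 4.14, 15.2-fold). In each of these 3 comparisons Dgat1 ranked 1 of 22180 genes for its increase.

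The truncated analogs left Dgat1 near the vehicle level. The readings were 5.84, 5.88 and 5.97 with bPTH(3-34), 5.97, 5.84 and 5.99 with hPTH(7-34), and 6.08, 5.87 and 6.09 with bPTH(7-34) at its higher dose. Arrays of each truncated analog overlapped with those of vehicle, of which replicate 1 read above the other two. The differences from vehicle were 0.14 (-0.07 to 0.35), 0.17 (-0.04 to 0.38) and 0.25 (0.04 to 0.46) in that order. In order of mean level, hPTH(1-34) (9.76 ± 0.07), hPTH(1-31) (9.74 ± 0.09) and PTH(1-36) (9.69 ± 0.07) came first. The neighbours in that order overlapped in their arrays. A gap of more than 3 units then separated them from bPTH(7-34) (6.01 ± 0.12), hPTH(7-34) (5.93 ± 0.08), bPTH(3-34) (5.90 ± 0.07) and vehicle, whose neighbours again overlapped.

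**Figure D1:**
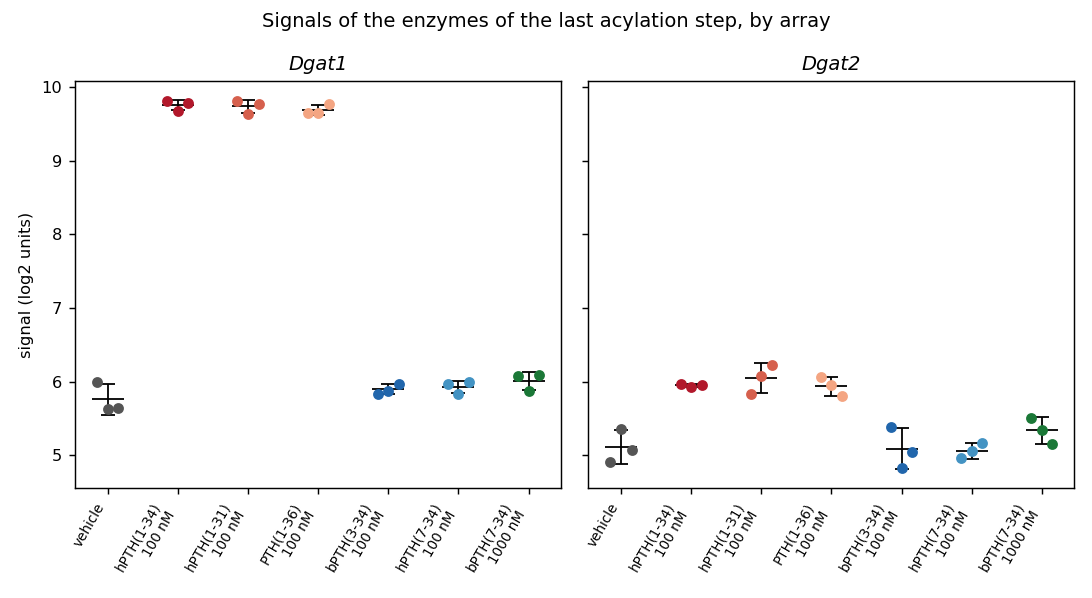
Signals of Dgat1 and Dgat2 (log2 units) in each of the 21 arrays, by treatment; points are arrays, bars the mean and SD of 3. Dgat1 sits between 9.64 and 9.81 with the 3 intact analogs and between 5.63 and 6.09 elsewhere; Dgat2 reads 5.81 or more in all 9 intact arrays and 5.51 or less in the other 12.

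Dgat2 (17493632, chromosome 7), the second enzyme of the last acylation step, rose with the same 3 analogs but by much less. It read 4.91, 5.36 and 5.08 with vehicle. With hPTH(1-34) it read 5.97, 5.93 and 5.95, with hPTH(1-31) 5.83, 6.08 and 6.23, and with PTH(1-36) 6.06, 5.96 and 5.81, so none of these arrays overlapped with vehicle. The increases were 0.83 with hPTH(1-34) (0.53 to 1.14, 1.78-fold, limma adjusted p = 7.29e-04), 0.93 with hPTH(1-31) (0.63 to 1.23, 1.91-fold, adjusted p = 2.27e-04) and 0.83 with PTH(1-36) (0.52 to 1.13, 1.77-fold, adjusted p = 9.03e-04). With the truncated analogs Dgat2 read 4.83 to 5.39 (bPTH(3-34)), 4.96 to 5.17 (hPTH(7-34)) and 5.15 to 5.51 (bPTH(7-34)). These ranges overlapped with vehicle, and the differences of -0.03, -0.05 and 0.22 were not called. Since this rise was known when the genes were chosen, its p-values are not independent evidence. The 6 comparisons with vehicle share the same 3 vehicle arrays.

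Of the 9 members other than Dgat1, 1 rose and 0 fell with hPTH(1-34), 2 rose and 0 fell with hPTH(1-31), and 1 rose and 0 fell with PTH(1-36), at an adjusted p under 0.05. Over all 22180 genes, 8.64% (3.90% higher, 4.74% lower), 8.70% (4.38% and 4.32%) and 7.23% (3.68% and 3.54%) were called in these comparisons, and the call common to the 3 analogs was that of Dgat2. A single call among 9 genes is near the share of genes at large, and hPTH(1-31) had 1 more, that of Lipe. The median difference of the 9 was 0.0000, -0.01 and -0.06, beside -0.01, -0.02 and -0.02 over all genes. Arrays did not overlap with vehicle for 4, 3 and 2 of the 9, where 23.4%, 22.1% and 20.5% of all genes had such a separation. With bPTH(3-34), hPTH(7-34) and bPTH(7-34), limma called 0 of the 9, and 0 had an unadjusted p under 0.05; of all genes 0%, 0.0721% and 0% were called, and 1313, 1817 and 1151 had an unadjusted p under 0.05. No member's arrays separated from vehicle with a truncated analog, where 10.1%, 12.3% and 8.48% of all genes did.

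The enzymes that act before the last step showed no call against vehicle with any analog. Gpam (17365728), which adds the first fatty acid to glycerol 3-phosphate, read 7.46, 7.38 and 7.44 with vehicle and 7.27, 7.20 and 7.32 with hPTH(1-34). The hPTH(1-34) arrays were all lower, yet the difference of -0.16 (-0.33 to 0.0048) missed the threshold (adjusted p = 0.270). With hPTH(1-31) and PTH(1-36) its arrays overlapped with vehicle, at differences of -0.11 and -0.06. Agpat2 (17383104), which adds the second fatty acid, differed by -0.17 with hPTH(1-34) (adjusted p = 0.362), -0.07 with hPTH(1-31) and -0.06 with PTH(1-36). Its vehicle arrays spread from 7.22 to 7.54 and spanned most of the treated ones. Lpin1 (17280062), the phosphatase that turns phosphatidic acid into diacylglycerol, stayed between 6.87 and 7.20 in all 21 arrays, with differences from vehicle between -0.10 and 0.03. Mogat1 (17214672), which makes diacylglycerol from monoacylglycerol, read 2.29 to 3.14 in the 21 arrays, below the array medians. A change of so low a signal may be understated, and its differences of 0.24, 0.13 and 0.11 with hPTH(1-34), hPTH(1-31) and PTH(1-36) were not called.

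**Figure D2:**
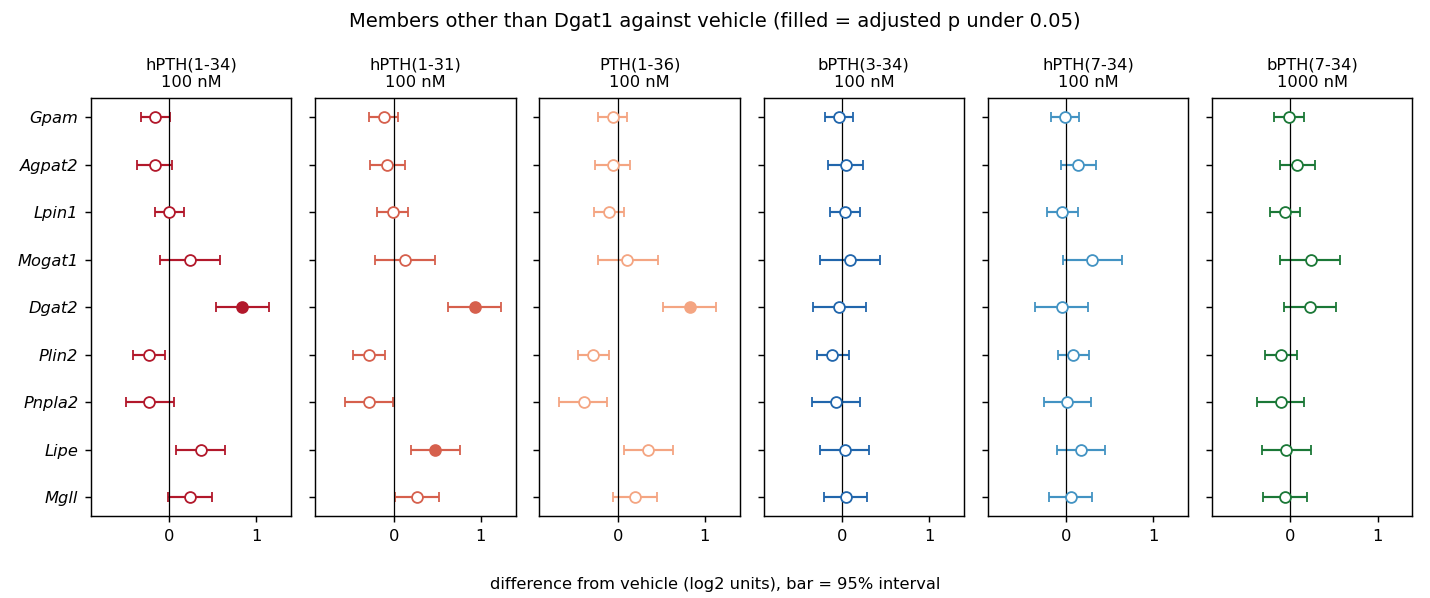
Difference from vehicle (log2 units, bar = 95% interval) of the 9 members other than Dgat1, 1 panel for each analog; filled points have an adjusted p under 0.05. Dgat2 is filled with the 3 intact analogs, Lipe with hPTH(1-31) only, and no point is filled with a truncated analog.

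Plin2 (17426981), the main perilipin of droplets outside fat tissue, had its lowest signals with the intact analogs. Vehicle arrays read 9.14, 9.17 and 8.91. The readings were 8.81, 8.90 and 8.81 with hPTH(1-34), 8.86, 8.80 and 8.71 with hPTH(1-31), and 8.89, 8.77 and 8.72 with PTH(1-36). Every one of these 9 arrays lay below all 3 vehicle arrays, but by a narrow margin, since vehicle replicate 3 was low. The differences of -0.23 (-0.42 to -0.05), -0.28 (-0.47 to -0.10) and -0.28 (-0.46 to -0.10) were not called (limma adjusted p = 0.122, 0.0506 and 0.0599). Without vehicle replicate 3 they were -0.31, -0.36 and -0.36 and passed (adjusted p = 0.0367, 0.0151 and 0.0180). Replicate 3 was also the lowest Plin2 array with hPTH(1-31) and with PTH(1-36), and those treated arrays stayed in that fit. With the truncated analogs Plin2 overlapped with vehicle.

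The lipases did not move as a group. Pnpla2 (17484909), the lipase that takes the first fatty acid from triacylglycerol, read 6.71, 6.92 and 6.38 with vehicle, a wide spread. It read 6.53, 6.43 and 6.37 with hPTH(1-34), 6.44, 6.48 and 6.24 with hPTH(1-31) and 6.43, 6.33 and 6.07 with PTH(1-36). All 3 groups overlapped with vehicle, and the differences of -0.23, -0.28 and -0.39 were not called (limma adjusted p = 0.373, 0.235 and 0.0798). Without vehicle replicate 3, the lowest vehicle array, the last 2 became -0.43 and -0.54 and were called (adjusted p = 0.0483 and 0.0137). Replicate 3 was the lowest Pnpla2 array in each of the 7 groups, however. The low treated replicate 3 arrays stayed in that fit, so these larger differences depend on which arrays were kept.

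Lipe (17487927), hormone-sensitive lipase, which acts mainly on diacylglycerol, read 4.03, 4.56 and 4.36 with vehicle and 4.79, 4.77 and 4.82 with hPTH(1-31). It was called higher with hPTH(1-31), by 0.48 (0.20 to 0.76, 1.39-fold, limma adjusted p = 0.0310). With hPTH(1-34) it read 4.80, 4.58 and 4.65, all just above vehicle, and with PTH(1-36) 4.56, 4.94 and 4.50, which overlapped. Those differences, 0.36 and 0.35, were not called (adjusted p = 0.120 and 0.141; for hPTH(1-34) without vehicle replicate 2, 0.48 and 0.0452), and the direct comparisons of these analogs with hPTH(1-31) gave no call either. The call with hPTH(1-31) rested on few arrays. It was lost without vehicle replicate 1 (0.33, adjusted p = 0.174) or 3 (0.0584), without any 1 of the 3 hPTH(1-31) arrays (0.0711 to 0.0898), and when only the 2 groups were fitted (0.139). Mgll (17460665), which releases the last fatty acid, differed from vehicle by 0.24, 0.27 and 0.20 with hPTH(1-34), hPTH(1-31) and PTH(1-36). Its arrays overlapped with vehicle in all 3, with replicate 3 the lowest array of each of these groups and of vehicle, and none was called (adjusted p = 0.283, 0.215 and 0.411).

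**Figure D3:**
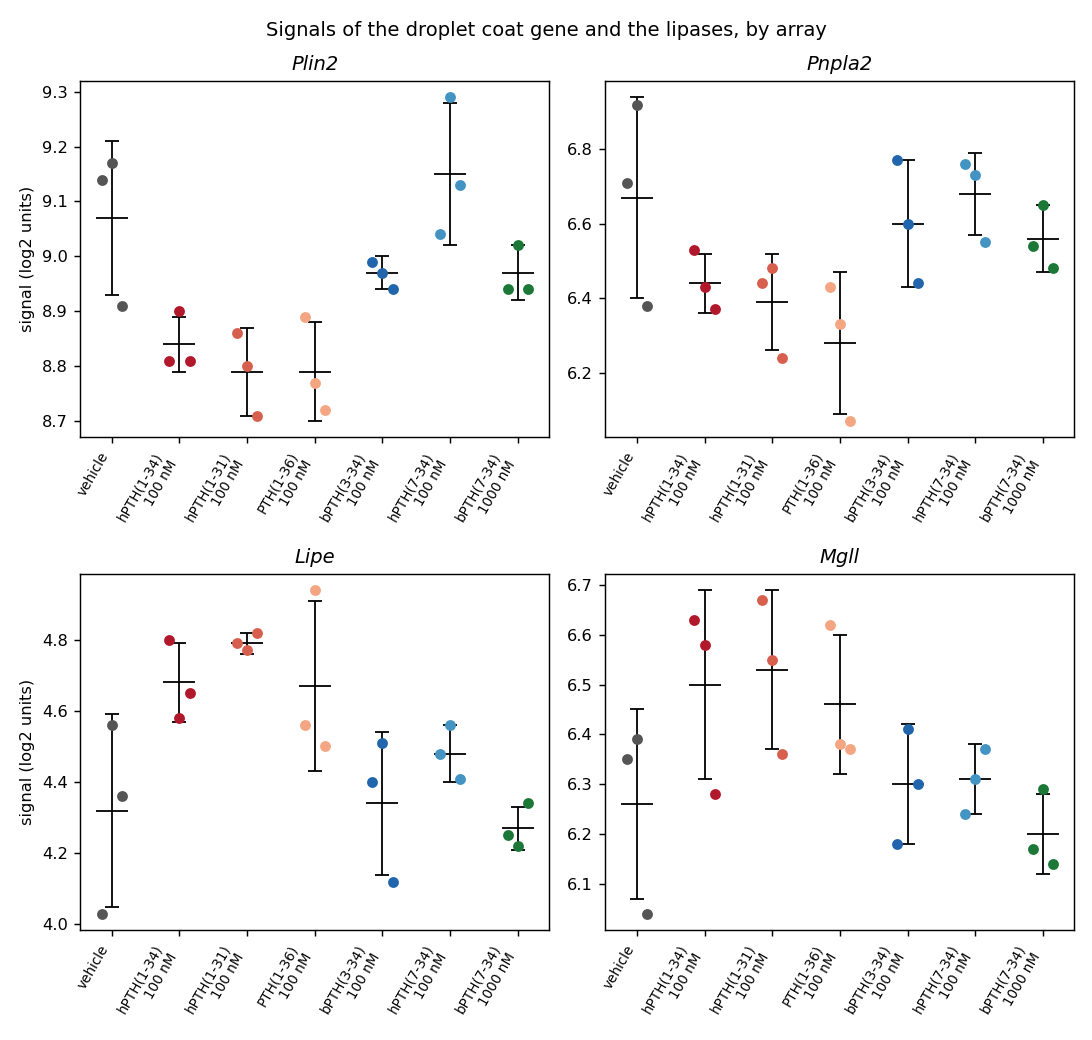
Signals of Plin2, Pnpla2, Lipe and Mgll (log2 units, a separate axis for each gene that does not start at 0) in the 21 arrays; points are arrays, bars the mean and SD of 3. The vehicle arrays spread from 8.91 to 9.17 for Plin2 and from 4.03 to 4.56 for Lipe, which is wide beside the differences between groups.

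The analogs used at 100 nM were compared directly in 6 pairs, with p-values adjusted over all genes and all 6 pairs, except where values within a pair are named. Among the intact analogs, which differ in where they end, Dgat1 differed by -0.02 between hPTH(1-31) and hPTH(1-34) (-0.23 to 0.19), by -0.07 between PTH(1-36) and hPTH(1-34) (-0.28 to 0.14) and by -0.05 between PTH(1-36) and hPTH(1-31) (-0.26 to 0.16). For Dgat2 the same differences were 0.10 (-0.21 to 0.40), -0.01 (-0.31 to 0.30) and -0.10 (-0.41 to 0.20), with limma adjusted p = 0.910, 0.997 and 0.901. None of the 9 other members was called in these 3 pairs, and 0 had an unadjusted p under 0.05. Of all genes, 0.108%, 0.198% and 0.162% were called in them over genes and pairs, 0%, 0.00451% and 0.00451% when adjusted within each pair, and 994, 1423 and 1257 genes had an unadjusted p under 0.05. The intervals for Dgat1 reach down to -0.28 and up to 0.19, and a p that misses the threshold does not show that the analogs act alike.

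Loss of the first residues went with lower Dgat1 and Dgat2, though bPTH(3-34) also differs from hPTH(1-34) in species, bovine against human. Dgat1 was lower by 3.86 with bPTH(3-34) and by 3.82 with hPTH(7-34) than with hPTH(1-34), a description that follows from how the group was chosen. Dgat2 differed by -0.86 with bPTH(3-34) (-1.16 to -0.56, adjusted p = 0.00150 over genes and pairs) and by -0.89 with hPTH(7-34) (-1.19 to -0.58, adjusted p = 0.00111). Dgat2 was the only 1 of the 9 called in these pairs at that adjustment, where 6.51% and 7.13% of all genes were called. Adjusted within each pair, 1 of the 9 was called for bPTH(3-34), beside 9.32% of all genes. For hPTH(7-34), 3 of the 9 were called, beside 10.9%, since Plin2 and Agpat2 were each higher by 0.31 than with hPTH(1-34) (adjusted p = 0.0247 and 0.0426). Both calls were lost over all 6 pairs (0.0736 and 0.121). Within the pair, the Plin2 call was lost without hPTH(1-34) replicate 1 or 3 or hPTH(7-34) replicate 2 (0.0773, 0.0793 and 0.136), and that of Agpat2 without any 1 of the 6 arrays (0.0661 to 0.154). The mean of the 12 macrophage markers was also higher in this pair, 9.48 to 9.63 with hPTH(7-34) against 9.32 to 9.45 with hPTH(1-34). Their median difference was 0.19, beside 0.0000 over all genes, and 0 of the 12 were called, beside 10.9% of all genes. Their part in the Plin2 and Agpat2 values was not tested.

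Between the truncated analogs bPTH(3-34) and hPTH(7-34), Dgat1 differed by 0.04 (-0.17 to 0.25) and Dgat2 by -0.03 (-0.33 to 0.28). These analogs differ both in the residue they start at and in species, bovine against human. None of the 9 was called by limma, 1 (Plin2, 0.19 higher with hPTH(7-34)) had an unadjusted p under 0.05, and of all genes 0.257% were called over genes and pairs, 0.0496% within the pair, and 1124 had an unadjusted p under 0.05. bPTH(7-34) was used at a different dose and was not compared. Beside it, at 1000 nM, Dgat1 read 6.01 ± 0.12 and Dgat2 5.34 ± 0.18, and with hPTH(7-34) at 100 nM they read 5.93 ± 0.08 and 5.06 ± 0.11.

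The members were set against 133 other measured genes of lipid storage and use, in 7 lists. Of these, 8 rose and 9 fell with hPTH(1-34) (12.8% called), 9 rose and 10 fell with hPTH(1-31) (14.3%), and 10 rose and 7 fell with PTH(1-36) (12.8%), beside 8.64%, 8.70% and 7.23% of all genes. Calls in one direction with all 3 intact analogs were made for 8 genes that rose and 6 that fell, 10.5% of the 133, where 5.28% of all genes had such calls. All genes also include genes of low signal, and the lists were not matched for signal level. When only the 14496 genes with a group mean above the median of all values were tested, 2372, 2340 and 2105 were called. As shares of those genes, these lie above the shares of the 133 given here. The share of the 133 under the same filter was not computed, so the excess over all genes is not read as a trait of lipid genes. The median difference of the 133 was -0.05, -0.06 and -0.04, against -0.01, -0.02 and -0.02 over all genes. With bPTH(3-34), hPTH(7-34) and bPTH(7-34), limma called 0 of the 133, beside 0%, 0.0721% and 0% of all genes. An unadjusted p under 0.05 was found for 8, 9 and 3 of the 133, and for 5.92%, 8.19% and 5.19% of all genes. Between the intact analogs 0 were called when adjusted within each pair, with 3, 4 and 1 at an unadjusted p under 0.05. Of all genes, 4.48%, 6.42% and 5.67% had such an unadjusted p.

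Of 18 measured genes of glycerol 3-phosphate supply and acylation, 2 rose and 0 fell with each intact analog (11.1%, near the share of all genes). These were Gpd2, the mitochondrial glycerol 3-phosphate dehydrogenase (0.63, 0.68 and 0.64 with hPTH(1-34), hPTH(1-31) and PTH(1-36), limma adjusted p between 4.46e-05 and 1.08e-04), and Agpat4, which adds a fatty acid to lysophosphatidic acid (0.62, 0.53 and 0.62). Of 22 genes of fatty acid uptake and activation, 4.55%, 4.55% and 9.09% were called with hPTH(1-34), hPTH(1-31) and PTH(1-36). All genes gave 8.64%, 8.70% and 7.23%. Acsl4, an acyl-CoA synthetase that prefers arachidonate, rose with each of these analogs, 1 of the 22. It read 7.11, 7.04 and 7.18 with vehicle and 8.33, 8.38 and 8.41 with hPTH(1-34), a difference of 1.26 (1.07 to 1.46, adjusted p = 2.97e-08), and 1.32 and 1.23 with the other two. Acss1, a mitochondrial acetyl-CoA synthetase, was called lower with PTH(1-36) (-0.52, adjusted p = 0.0214), and its differences with hPTH(1-34) and hPTH(1-31), -0.38 and -0.40, were not called (0.105 and 0.0811). Both passed without vehicle replicate 3 (0.0367 and 0.0286), as did hPTH(1-31) without its replicate 1 (0.0448). Replicate 3 was the lowest Acss1 array with vehicle and with each intact analog. Its other transcript cluster gave 0.05 with PTH(1-36), and the call ended on leaving out vehicle replicate 1 or 2 or PTH(1-36) replicate 2 or 3 (0.0876, 0.108, 0.0809 and 0.0939). Of 11 further lipid acyltransferases, 9.09% were called with each intact analog, near the share of all genes. Mboat1, which acylates lysophospholipids, fell with each (-1.05, -1.14 and -0.88, limma adjusted p between 4.33e-06 and 1.12e-04) and 0 rose.

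On the droplet itself, 1 of 19 measured genes rose with each intact analog, and 2, 3 and 2 fell with hPTH(1-34), hPTH(1-31) and PTH(1-36). The shares called were 15.8%, 21.1% and 15.8%, beside 8.64%, 8.70% and 7.23% of all genes. Cidea, which lets droplets grow by passing lipid between them, read 3.41, 3.61 and 3.09 with vehicle, near or below the array medians, where a change may be understated. It read 5.20, 4.68 and 5.28 with hPTH(1-34), and the increases were 1.68 (1.25 to 2.11), 1.86 (1.43 to 2.29) and 1.54 (1.11 to 1.97) with hPTH(1-34), hPTH(1-31) and PTH(1-36) (limma adjusted p between 4.20e-06 and 5.16e-05). The coat gene Plin3 fell (-0.55, -0.54 and -0.57), and so did Tmem159, a protein of droplet formation (-0.43, -0.40 and -0.34). Hsd17b11, a droplet-bound dehydrogenase, fell with hPTH(1-31) (-0.31, adjusted p = 0.0122). The list's median was -0.14, -0.10 and -0.13. When only 2 groups were fitted, Tmem159 was lost in all 3 comparisons (0.0910 to 0.245) and Hsd17b11 in its own (0.171). Tmem159 was also lost with hPTH(1-31) without vehicle replicate 1 or hPTH(1-31) replicate 3 (0.0747 and 0.0710), and with PTH(1-36) without vehicle replicate 1 or 2 or PTH(1-36) replicate 2 or 3 (0.166, 0.0967, 0.165 and 0.0753). The Hsd17b11 call ended on leaving out vehicle replicate 3 or hPTH(1-31) replicate 2 (0.0598 and 0.0717).

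Of 24 genes of lipolysis and its control, 8.33%, 4.17% and 4.17% were called with hPTH(1-34), hPTH(1-31) and PTH(1-36). These shares lay below those of all genes, 8.64%, 8.70% and 7.23%. Abhd5, the protein that activates the lipase encoded by Pnpla2, rose with each intact analog (0.50, 0.48 and 0.49, limma adjusted p between 0.00242 and 0.00356). Its arrays with bPTH(3-34) (7.34 to 7.44) and hPTH(7-34) (7.38 to 7.49) also lay above those of vehicle (7.06 to 7.32), at differences of 0.24 and 0.27 that were not called (0.775 and 0.497). G0s2, which inhibits the same lipase, read 5.10, 5.14 and 5.30 with vehicle and 4.57, 4.66 and 4.52 with hPTH(1-34), a fall of 0.60 on the log2 scale (adjusted p = 0.00316). Its differences with hPTH(1-31) and PTH(1-36), -0.34 and -0.39, were not called (0.108 and 0.0586). The second G0s2 cluster, with a lower mean signal, gave 0.33 with hPTH(1-34) and was not called, so the direction depends on the cluster. When only 2 groups were fitted, Abhd5 was lost with hPTH(1-31) and PTH(1-36) (0.0642 and 0.0703).

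Genes that make and burn fatty acids were called in both directions. Of 19 synthesis genes, 2, 3 and 4 rose and 2, 2 and 1 fell with hPTH(1-34), hPTH(1-31) and PTH(1-36). The shares called were 21.1%, 26.3% and 26.3%, beside 8.64%, 8.70% and 7.23% of all genes. Elovl5, which lengthens polyunsaturated fatty acids, rose with each (0.59, 0.58 and 0.61), as did the desaturase Scd1 (0.47, 0.44 and 0.49), while the desaturase Fads1 fell (-0.44, -0.35 and -0.28, adjusted p up to 0.0435). Elovl6, which lengthens saturated fatty acids, rose with hPTH(1-31) and PTH(1-36) (0.39 and 0.31), and its difference of 0.27 with hPTH(1-34) was not called (0.0845), though it passed among genes above the median of all values (0.0413) and with trend and robust settings (0.0201). Of 20 oxidation genes, 1 rose and 3, 4 and 2 fell. The one that rose was Ppard, a nuclear receptor that binds fatty acids. It read 7.18, 7.20 and 7.16 with vehicle and 8.18, 8.10 and 8.06 with hPTH(1-34), and rose by 0.93, 1.07 and 0.85 (limma adjusted p between 8.17e-08 and 1.88e-06). Those that fell included Acadm, the medium-chain acyl-CoA dehydrogenase (-0.50, -0.49 and -0.41), and Cpt1a, which admits fatty acids to mitochondria (-0.42, -0.28 and -0.35). Acadl, the long-chain dehydrogenase, fell with hPTH(1-34) and hPTH(1-31) (-0.38 and -0.36). In fits of only 2 groups the calls of Elovl6 and Acadl, all 3 of Cpt1a, 2 of Fads1 and, with PTH(1-36), those of Scd1, Plin3 and Acadm were lost. Leaving out single arrays ended the Fads1 call with PTH(1-36) for each of vehicle replicates 1 to 3 and PTH(1-36) replicates 1 to 3 (0.0514 to 0.182) and with hPTH(1-31) for vehicle replicate 2 (0.0520). Elovl6 was lost with hPTH(1-31) without vehicle replicate 3 (0.0531), and with PTH(1-36) without any 1 vehicle array or PTH(1-36) replicate 1 or 2 (0.0502 to 0.180). Cpt1a was lost with hPTH(1-31) without vehicle replicate 1 or 2 or any 1 hPTH(1-31) array (0.0660 to 0.182), and with PTH(1-36) without vehicle replicate 2 or PTH(1-36) replicate 3 (0.0830 and 0.0699). Acadl was lost with hPTH(1-34) without vehicle replicate 2 or hPTH(1-34) replicate 1 or 3 (0.0986, 0.0508 and 0.0545), and with hPTH(1-31) without vehicle replicate 2 or hPTH(1-31) replicate 2 or 3 (0.131, 0.104 and 0.0517).

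**Figure D4:**
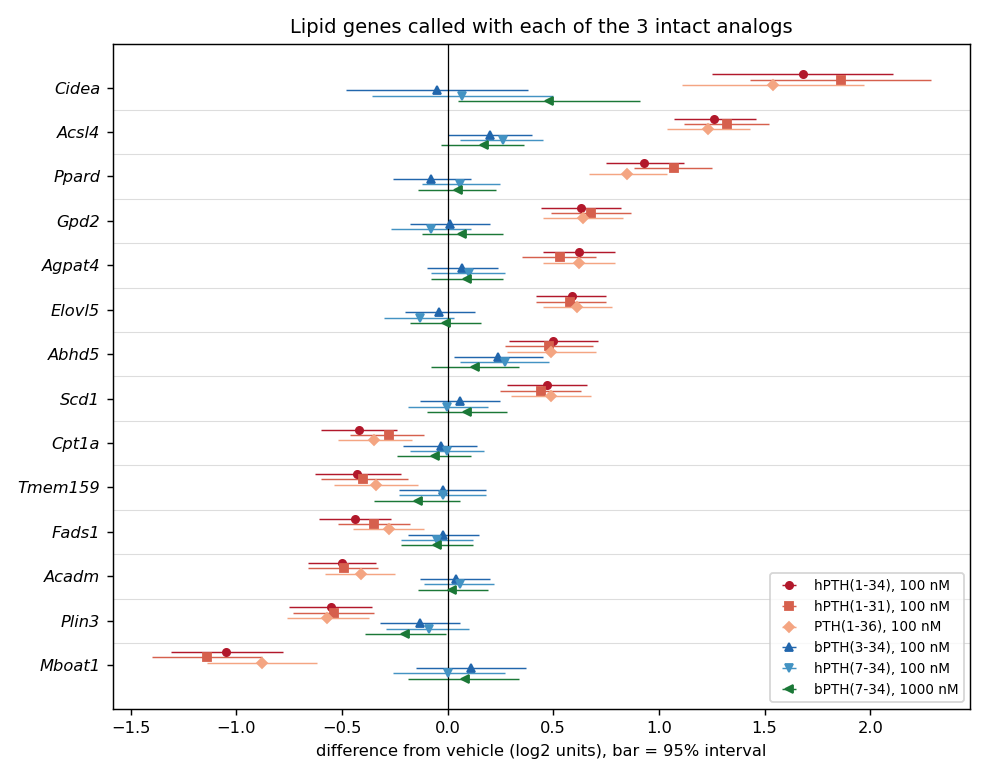
Difference from vehicle (log2 units, bar = 95% interval) of the 14 list genes called in one direction with all 3 intact analogs, by analog. Cidea (1.54 to 1.86) and Acsl4 (1.23 to 1.32) rise the most and Mboat1 (-1.14 to -0.88) falls the most with the intact analogs, while no truncated analog has a call. Cidea starts from a low vehicle signal (mean 3.37).

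Pparg, the nuclear receptor that drives fat cell formation and a regulator of several of these genes in fat, fell with the intact analogs (-0.61, -0.82 and -0.72, limma adjusted p = 0.00227, 1.04e-04 and 5.03e-04). Slc2a4, the insulin-responsive glucose transporter, was called in 1 comparison, higher by 0.73 with hPTH(1-31). The other 7 of the 9 adipocyte markers had no call against vehicle. The part of other cell types in the values of the lipid genes was not tested.

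Promoter windows from RefSeq (GRCm38.p6, 250 bases before to 50 after a start site) were searched on both strands for the cyclic AMP response element TGACGTCA, its core TGACG, which also lies within it, and the NR4A element AAAGGTCA. Windows were found for 8 of the 10 members; Dgat1 and Dgat2 had none. Of the 8, 2 held the core (Gpam and Mgll), 0 the full element and 0 the NR4A element, while 23.0%, 2.03% and 1.70% of 27025 genes did. Among the list genes that rose with all 3 intact analogs, 6 of 8 had a window, of which 5 held the core and 1 the full element. Of the 6 that fell, 4 had a window and 1 (Acadm) held the core. These genes were taken for their change, so the counts are a description with no test, and a match is not a site in use. The stretches below show the matched letters in capitals, with CGTCA being the core on the other strand, for 3 genes that rose together and for Gpam, which was not called. Acsl4 is at chrX:142390536-142390685 (minus strand), Ppard at chr17:28232634-28232783 (plus strand), Elovl5 at chr9:77917245-77917394 (plus strand) and Gpam at chr19:55099478-55099627 (minus strand), from a second start site. Counted with the first transcribed base as 1 and no base 0, the core begins at -119 in Acsl4 and -4 in Ppard, the full element spans 4 to 11 in Elovl5, and in Gpam the core lies at -31 to -27 and at -9 to -5.
Acsl4: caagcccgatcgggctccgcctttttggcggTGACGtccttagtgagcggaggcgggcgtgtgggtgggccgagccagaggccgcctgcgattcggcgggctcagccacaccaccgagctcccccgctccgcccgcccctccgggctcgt
Ppard: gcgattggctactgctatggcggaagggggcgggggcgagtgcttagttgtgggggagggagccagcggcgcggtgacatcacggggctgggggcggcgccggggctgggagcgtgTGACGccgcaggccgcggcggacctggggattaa
Elovl5: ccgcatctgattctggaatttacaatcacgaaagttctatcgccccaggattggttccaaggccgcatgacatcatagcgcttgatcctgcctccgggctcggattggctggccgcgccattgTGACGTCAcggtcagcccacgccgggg
Gpam: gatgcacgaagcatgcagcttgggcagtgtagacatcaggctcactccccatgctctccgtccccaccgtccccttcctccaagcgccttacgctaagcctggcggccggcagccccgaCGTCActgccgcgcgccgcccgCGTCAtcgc

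The pattern of Dgat1 over the 21 arrays was shared most closely by genes outside lipid metabolism. The 6 highest Pearson correlations among 22180 genes were those of Ugdh (r = 0.998), which makes UDP-glucuronate, Dock9 (0.997), a guanine nucleotide exchange factor, the vitamin D receptor Vdr (0.996), the tRNA synthetase Eprs (0.996), the calponin Cnn1 (0.995), an actin-binding protein, and Uap1 (0.995), which makes UDP-N-acetylglucosamine. With hPTH(1-34) they were higher than with vehicle by 2.17, 2.43, 3.82, 1.43, 2.10 and 2.02. The arrays fall into 2 clusters, intact and all others, which sets these values. Of the members, Dgat2 was the most like Dgat1 (r = 0.92), followed by Lipe (0.74) and Mgll (0.68), and the least like it were Plin2 (-0.78), Pnpla2 (-0.68), Agpat2 (-0.62) and Gpam (-0.56). Lpin1 (-0.14) and Mogat1 (0.04) followed it little. These values describe the 21 arrays and carry no test.

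None of the 6 nearest measured neighbours of Dgat1 on chromosome 15 was called higher with an intact analog. Mroh1 and Bop1, which precede it in RefSeq (GRCm38.p6), differed from vehicle by -0.10 to 0.01 with the intact analogs. Tmem249 and Fbxl6, which follow it, differed by 0.03 to 0.30, with no call. Scrt1, the next gene after Dgat1, encodes a transcriptional repressor and had differences of 0.29, 0.41 and 0.01 that were not called against vehicle. It was called lower with bPTH(3-34) and hPTH(7-34) than with hPTH(1-34) (-0.82 and -0.61, adjusted p = 0.00132 and 0.0123 within the pair), the second not without hPTH(1-34) replicate 2 or hPTH(7-34) replicate 3 (0.0717 and 0.0590). Scx, a transcription factor gene of tendon and ligament cells that lies within the span of Bop1, fell. It read 6.89, 7.03 and 7.22 with vehicle and 5.50, 5.53 and 5.82 with hPTH(1-34), with differences of -1.43, -1.53 and -1.31 with hPTH(1-34), hPTH(1-31) and PTH(1-36) (limma adjusted p = 3.08e-06, 1.32e-06 and 1.10e-05). Of these 6 neighbours Scx was the only one called against vehicle.

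**Figure D5:**
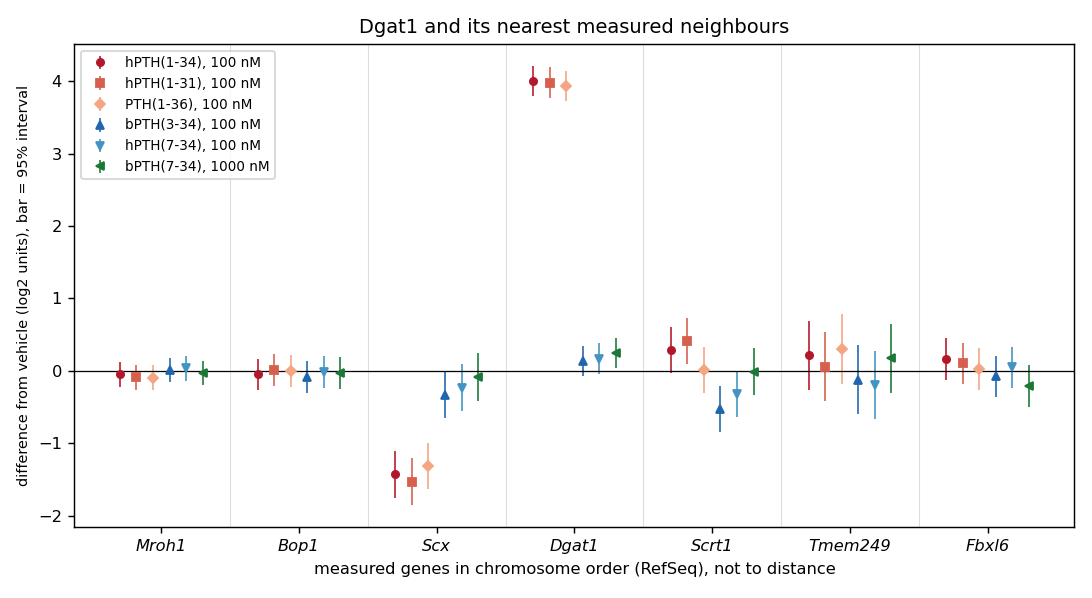
Difference from vehicle (log2 units, bar = 95% interval) of Dgat1 and of the 3 nearest measured genes on each side, in chromosome order, by analog; distances are not drawn. Dgat1 sits at 3.93 to 4.00 with the intact analogs, Scx at -1.53 to -1.31, and the other 5 neighbours between -0.53 and 0.41 with every analog.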

How the data were processed

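Signals of 21 arrays, read as log2, came from the table the authors deposited; per the submitters' processing notes RMA and Affymetrix Expression Console were used, with versions, settings and log base not given in the sources used here. RMA usually corrects background, normalizes by quantiles and summarises probes, which makes arrays comparable and compresses low signals. Of 41345 transcript clusters, 23521 had 1 symbol, 1814 several and 16010 were not in the annotation; the cluster with the highest mean stood for a gene, which left 22180 genes. A single linear model held all arrays by group (limma 3.58.1 with lmFit and eBayes, R 4.3.3). Two-sided p-values were Benjamini-Hochberg adjusted across the genes in each contrast, with calls at 0.05. For the 6 pairs between analogs they were also adjusted over all genes and pairs together. The alternatives start from the adjustment within each contrast. Fits were tested on simulated data. There were 12 contrasts, 6 against vehicle and 6 between analogs at 100 nM.

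The members and lists were chosen with earlier results of these data known, the rises of Dgat1 and Dgat2 included. Named were all members, from each list up to 4 called genes (lowest adjusted p), the 6 genes most like Dgat1, its neighbours and cell type markers. P-values set a difference between groups against the spread between cultures of the same group, estimated over all 7 groups. Osteoblasts were prepared separately for each replicate, so that spread includes differences between preparations. Alternatives were other normalization, filters, row choice, fits and leaving out each array.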

Additional observations from a re-analysis of the deposited data

How the results depend on the processing

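Over 1446 recomputed differences of the 9 members other than Dgat1, 1405 kept their side of the threshold, 23 lost a call and 18 gained one. No called difference reversed, while some uncalled ones changed sign. Dgat2 kept its calls with the 3 intact analogs under every alternative run (adjusted p 2.94e-05 to 0.0225), and the increase of Dgat1 ranged from 3.87 to 4.12. The number of the 9 called became 2 with hPTH(1-34) and 3 with PTH(1-36) under eBayes with trend and robust, 1 with hPTH(1-31) and 1 for hPTH(7-34) against hPTH(1-34) when only 2 groups were fitted or all transcript clusters were tested, 2 with PTH(1-36) and 2 for hPTH(7-34) against hPTH(1-34) after quantile normalization again, 3 with PTH(1-36) among genes above the median of all values, and 1 for hPTH(7-34) against hPTH(1-34) over the 6 pairs. With hPTH(1-31) it became 3, with Plin2 lower, under trend and robust, quantile normalization again and genes above the median. Leaving out each array gave 1 to 2 with hPTH(1-34), 1 to 3 with hPTH(1-31), 1 to 3 with PTH(1-36), 0 with each truncated analog, 1 for bPTH(3-34) and 1 to 2 for hPTH(7-34) against hPTH(1-34), and 0 in the other pairs. With the lower row of a gene, G0s2 reversed to 0.33 with hPTH(1-34) and to -0.12 and -0.11 in bPTH(3-34) and hPTH(7-34) against it, and Acss1 to 0.05 with PTH(1-36). The cause of these changes was not tested.

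Taken over all genes, same-numbered arrays deviated together little (r -0.0809 to 0.161, median 0.0341, over 63 pairs), where different numbers had a median of -0.0129. Single genes can follow the number more closely, since Agpat2 and Pnpla2 read lowest in replicate 3 in each of the 7 groups. Yet 14 of 21 arrays were closest to their own number, and the labels do not say whether same-numbered arrays share a preparation. The numbers were not used as pairs in the main fit, and a block on them was run as an alternative. With a replicate block the number of the 9 called with PTH(1-36) became 3. Plin2 and Pnpla2 were added (limma adjusted p = 0.0324 and 0.00857), and Plin2 was called with hPTH(1-31) (adjusted p = 0.0271). Outside the members, Scrt1 with hPTH(1-31) (0.0275), Acss1 with hPTH(1-34) and hPTH(1-31) (0.0213 and 0.0149) and Elovl6 with hPTH(1-34) (0.0109) were called with it. Over all genes 2190 were called with hPTH(1-34), against 1917. The number of arrays and the low signal of Mogat1 limit what could be detected.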
